A study of Homo sapiens with 12 samples.

Results

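The regions described here were 6334 stretches of the SW620 transcriptome in which acetylated RNA immunoprecipitation sequencing (acRIP-seq) listed exactly 1 peak in each of 6 libraries, all with the same first and last base. The peaks of the 6 lists were pooled and joined wherever they overlapped by at least 1 base on the same strand, which gave 41755 merged regions. Of these, 9195 held a peak in all 6 libraries, 8758 held exactly 1 peak in each, and 6334 also had identical boundaries, which was 15.2% of all merged regions and 72.3% of those with 1 peak in each library. The remaining 2424 regions with 1 peak in each library had boundaries that differed and are called shifting regions below. The members were chosen by the measured positions, so their number and lengths are descriptions. SW620 is a human colorectal cancer cell line. The libraries were 3 immunoprecipitations from cells carrying a control short hairpin RNA (shControl, genotype given as WT) and 3 from cells carrying a short hairpin RNA against NAT10 (shNAT10, genotype given as NAT10 knockdown). Both groups were therefore shRNA-bearing cells of 1 line, and the labels do not say whether the replicates were separate cultures. P-values then measure only the spread between these libraries, which may be technical. The lists hold no read counts, so depth is unknown.

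N4-acetylcytidine (ac4C) is an acetylated form of cytidine found in transfer RNA, ribosomal RNA and, in reported maps, messenger RNA. NAT10 is the enzyme that places it, and the mark has been linked to the stability and translation of the RNA that carries it. In acRIP-seq, RNA is broken into fragments, pulled down with an antibody against ac4C and sequenced, so a peak is a stretch where fragments pile up and not a single modified base. A peak's score in these lists is a value deposited by the authors, whose scale is not stated. It is not a measured amount of ac4C, and a difference in score is not a fold change in ac4C.

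The 3′ edges of the identical regions were read by the letters that follow them. RefSeq sequence windows around transcript starts (250 bases before to 50 after, GRCh38.p14) held the 3′ edge of 126 identical regions. The next 2 letters of the genome were GT, with which most introns begin, at 121 of these edges (96.0%). The last base inside the region was G at 111 of them (88.1%). GT made up 4.62% of adjacent letter pairs over all windows. The 6 regions below are examples of edges followed by GT, the longest in a single named gene, with 1 chromosome set aside, that had scores at the ceiling (3100 or above) in every library. Each line gives 14 bases inside the region, the GT in capitals and 8 bases beyond, 5′ to 3′ on the strand of the peak.
SRF: gcatcatgaagaagGTaccaagcc
RTN4: ctcgggctcagtggGTgagtgccg
AEBP2: gactcggaggacagGTcagtgctc
CDV3: aggctgtgacgaagGTgaggggcc
ATOSA: agacgcggcgctcgGTgcggcggg
NUDT4: agcaggaggacgagGTagggcgcc
SRF, a transcription factor of the serum response, had its region at chr6:43171299-43172169 on the plus strand, and the letters shown cover chr6:43172156-43172179. The region of RTN4, a reticulon of the endoplasmic reticulum, lay at chr2:55049745-55050544 on the minus strand, shown at chr2:55049735-55049758. That of AEBP2, an accessory protein of Polycomb repressive complex 2, lay at chr12:19439674-19440370 on the plus strand, shown at chr12:19440357-19440380. CDV3 had its region at chr3:133573730-133574284 on the plus strand, shown at chr3:133574271-133574294. ATOSA had its region at chr15:52678828-52679372 on the minus strand, shown at chr15:52678818-52678841. The region of NUDT4, an inositol pyrophosphate phosphatase, lay at chr12:93377883-93378421 on the plus strand, shown at chr12:93378408-93378431.

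The 5 identical regions whose 3′ edge was not followed by GT lay in PDHX and NREP, where the letters were GC, in UCHL3 (TC), in ATRAID (GG) and in the shared span of ZNF580 and ZNF581 (AT). Shifting regions whose 3′ edge was the same in every library had GT behind it at 43 of 43 edges inside the windows. Where the 3′ edge of a shifting region moved between libraries, GT followed 8 of 33 distinct edges (24.2%). Over all distinct 3′ edges of the deposited peaks inside the windows, 592 of 804 (73.6%) were followed by GT. GT thus followed nearly all fixed 3′ edges in both classes of region and a minority of the moving ones. The windows reach only a small part of the transcriptome, so 1.99% of the identical regions could be read in this way, and the letters at the other 3′ edges were not analysed here.

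The 5′ edges gathered at transcript starts. A 5′ edge lay inside a window in 1726 identical regions (27.2%), and in 171 (2.70%) it was exactly the first transcribed base of a RefSeq transcript. In 471 regions (7.44%) it lay within 10 bases of a start, and in 1312 (20.7%) within 50 bases. The corresponding shares of the shifting regions were 2.06%, 5.73% and 14.1%. Of the 5′ edges inside windows, 64.1% lay upstream of the nearest start among identical regions and 78.3% among shifting regions. The 5′ edge of a shifting region was taken as the most upstream edge of any library. That choice alone raises the upstream share of the shifting regions and can change their shares near a start. The contrasts between the classes in this paragraph are therefore partly built in. The identical edges were most frequent from the start to 9 bases past it (296 regions, 4.67%), with a smaller rise at 21 to 30 bases upstream (180 regions, 2.84%). Between these lay 134 regions at 11 to 20 and 162 at 1 to 10 bases upstream, so the spread was continuous. At 21 to 30 bases upstream the shifting regions reached 1.36%.

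At the 171 exact starts the first base was A in 87 regions, G in 65, C in 16 and T in 3. Away from exact starts, the letters AG came before the 5′ edge in 86 of 1564 identical regions (5.5%). AG made up 7.26% of adjacent letter pairs over all windows. The 4 regions below, chosen in the same way, are the longest at the ceiling in every library with a 5′ edge exactly at a start that the window table gives for their own gene. Capitals mark the first 5 transcribed bases, after 8 bases of upstream sequence.
SLC35C1: gggcgcccAGTGCaccggaggaggtgag
JUND: cgcggcgcAGGAGccgccgccagtggag
SLC12A2: cgcccgccACACTcgcgcgctcgctcgg
EN2: ctgttgaaTCTCTcatcgtctgggcgag
The region of SLC35C1, a GDP-fucose transporter, was at chr11:45804406-45806336 on the plus strand, shown at chr11:45804398-45804425. That of JUND, an AP-1 transcription factor, was at chr19:18279760-18281622 on the minus strand, shown at chr19:18281603-18281630. The region of SLC12A2, a sodium, potassium and chloride cotransporter, was at chr5:128083766-128084710 on the plus strand, shown at chr5:128083758-128083785. That of EN2, a homeobox transcription factor, was at chr7:155458129-155459062 on the plus strand, shown at chr7:155458121-155458148. JUND, SLC12A2 and EN2 were, with FBRS and STX16, also among the 5 highest-ranked regions that start at the annotated start of a gene. No window was matched to FBRS, whose region was 1547 bases long.

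Cytidine at regularly spaced positions has been used as a letter pattern in work on ac4C, and it was searched as CNNCNNCNN on the sense strand only, in the first 30 bases of regions that lay inside a window. It was present in 757 of 1567 identical regions (48.3%), in 284 of 688 shifting regions (41.3%) and in 13400 of 35116 transcript starts of the table (38.2%). For shifting regions the bases were counted from the most upstream edge of any library. The same stretches were 31.8% C in identical regions, 31.5% C in shifting regions and 27.8% C at all starts. G made up 38.9%, 35.8% and 31.1%. The pattern was thus read beside a base composition that differed in the same order for both C and G. C differed little between identical and shifting regions. The part of composition in the pattern was not tested. A match is a run of letters, not a modified site.

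Gene ends set the classes apart mainly at the 3′ end, where shifting regions had the higher share. An edge exactly at the start or end of a protein-coding gene was found in 236 identical regions (3.73%). Of these, 136 lay at the gene's 5′ end (2.15%) and 100 at its 3′ end (1.58%). Among shifting regions, taken from the first to the last base of any library, the share was 9.12%. There 47 lay at the 5′ end (1.94%) and 175 at the 3′ end (7.22%). Within 10 bases of either end the shares were 10.2% and 17.6%. At the 5′ end alone they were 6.96% and 5.28%, and at the 3′ end alone 3.24% and 12.6%. Position along the gene differed mainly toward the end of the span. Among regions in the span of 1 gene of known strand, 38.5% of 5060 identical regions and 38.4% of 1761 shifting regions had their midpoint in the first 10% of the span. In the last 10% the shares were 6.15% and 16%. The span includes introns, and exon, coding and untranslated annotation was not used here.

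Identical regions were short. Their median length was 218 bases (quartiles 143 and 396, range 16 to 8176), and 64.7% were at most 300 bases long. Shifting regions, measured from the first to the last base of any library, had a median of 495.5 bases, and their single peaks a median of 432. Above 1000 bases lay 5.08% of the identical and 24.8% of the shifting regions. The shortest regions were those of BRD1 (16 bases, chr22:49827497-49827512), CDHR2 (24), ITPK1 (25), EPPK1 (27) and ZFP91 (29). Just outside the rule, 36 shifting regions differed by 1 base in total over the libraries and 228 by 2 to 10 bases. The median total difference of the shifting regions was 87.5 bases, with a range of 1 to 5729.

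**Figure D1:**
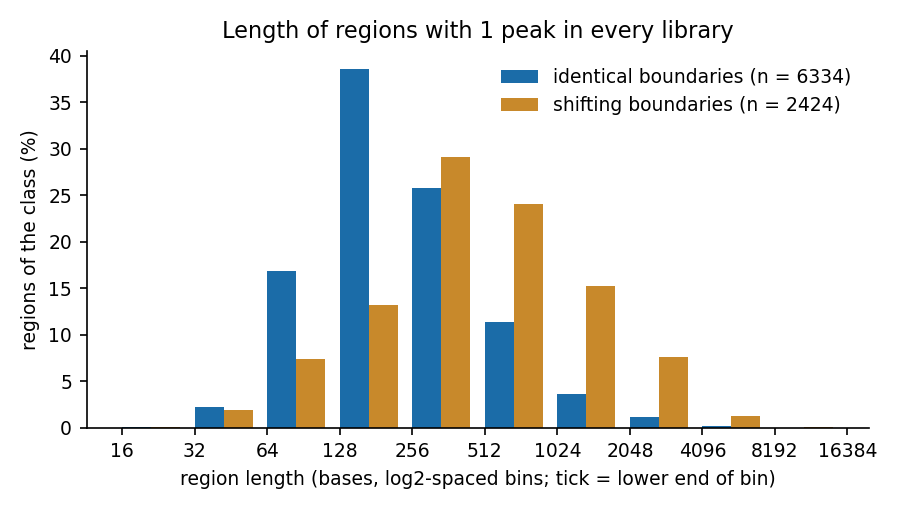
The x axis gives region length in bases in bins of doubling width, each tick at the lower end of its bin, and the y axis the percent of regions of the class. The identical regions are most frequent at 128 to 255 bases (38.6%) and the shifting regions at 256 to 511 bases (29.1%).

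Of the shifting regions, 1120 kept the 5′ edge and moved the 3′ edge, 1064 kept the 3′ edge and moved the 5′ edge, and 240 moved both. Identical regions lay on the plus strand in 3300 cases and on the minus strand in 3034. They took up 34.7%, 28.0% and 31.6% of the peaks of control replicates 1, 2 and 3, and 22%, 35.4% and 33.3% of those of knockdown replicates 1, 2 and 3. Knockdown replicate 1 had the longest list, with 28752 peaks, and the lowest share. Per chromosome, between 60.8% (chromosome 18, 48 of 79) and 80.1% (chromosome 20, 302 of 377) of the regions with 1 peak in each library were identical.

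Before the scores are compared, 2 features of the libraries have to be given. The log2 scores of the identical regions correlated most between knockdown replicates 2 and 3 (Pearson r = 0.865 over 6334 regions of these 2 libraries, a description across regions) and least between control replicate 1 and knockdown replicate 1 (0.673). Control replicate 3 correlated more with knockdown replicates 3 (0.781) and 2 (0.768) than with control replicates 1 (0.724) and 2 (0.727). With knockdown replicate 1 it correlated less (0.684), so it stood nearer to part of the other group than to its own. Of 12 markers of colorectal epithelium, 5 had a peak in all 6 libraries. Identical regions were found in 4 of the 12, namely VIL1 (4 regions), CDH1 (2), KRT8 (1) and CDX2 (1). KRT18, KRT20 and CDX1 had no peak. Of 10 markers of blood, fibroblasts and endothelium, 6 had no peak, none had one in all 6 libraries and none held an identical region. Over all protein-coding genes, 5237 of 20050 had a region in all 6 libraries and 18.7% held an identical one. The marker counts are small and a peak does not measure expression, so they do not check the identity of the line. NAT10 itself had 1, 0 and 2 peaks in the control and 2, 0 and 1 in the knockdown libraries and no identical region, and peak numbers do not measure its mRNA, so the knockdown could not be checked from these lists.

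The score was not used to choose the members. It starts at 50 and has a ceiling at 3100, where differences among the highest-scoring peaks are lost. Values above 3100 are given as 3100. The median score of the identical regions was 619.9, 936.9 and 1152.7 in control replicates 1 to 3 and 1863.6, 986.0 and 1144.9 in knockdown replicates 1 to 3. The shifting regions had medians of 395.1, 648.0 and 722.2 in the control and 1198.4, 574.2 and 670.0 in the knockdown libraries. In each of the 6 libraries the identical regions had the higher median, although they were shorter, and longer regions scored higher. From the shortest to the longest length quartile of the identical regions, the median of the mean within-library percentile went from 38.1 to 44.3, 54.3 and 71.8.

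**Figure D2:**
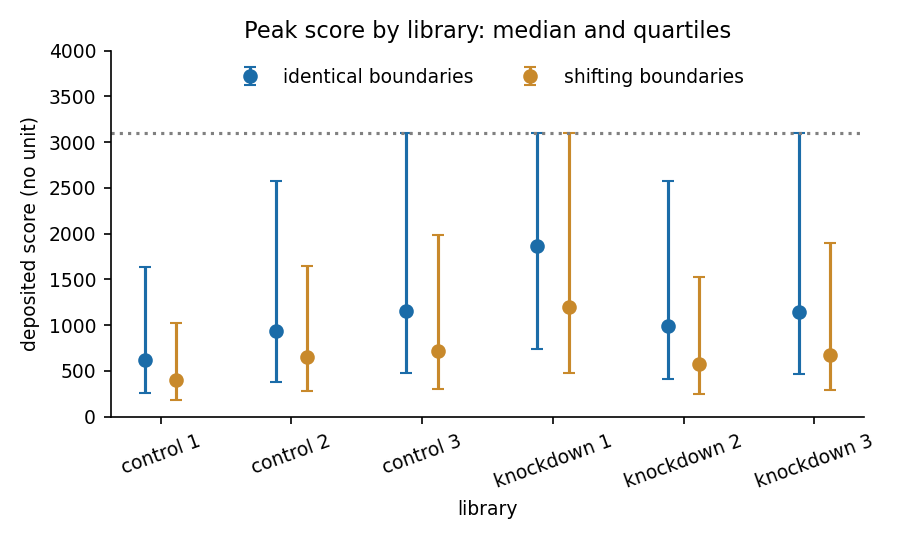
The x axis lists the libraries and the y axis the deposited score, which has no unit. Points are medians and bars run from the lower to the upper quartile over regions, with the dotted line at the ceiling of 3100. The median of the identical regions is above that of the shifting regions in all 6 libraries, from 619.9 against 395.1 in control replicate 1 to 1863.6 against 1198.4 in knockdown replicate 1.

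Within bins of region length the identical regions also had the higher percentile. Shifting regions were binned by their span over all libraries, which can exceed the length of a single peak. The lengths compared were therefore not equal, and the size of the gap within a bin partly reflects the binning. Up to 150 bases, the median of the mean percentile was 37.9 in 1742 identical and 22.8 in 301 shifting regions. From 151 to 300 bases the values were 47.8 and 25.5, from 301 to 600 bases 61.3 and 37.2, and above 600 bases 78.9 and 53.1. Regions at the ceiling in all 6 libraries numbered 749 among the identical (11.8%) and 158 among the shifting (6.52%). Of the identical regions, 3798 (60.0%) were below the ceiling in every library.

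The longest identical regions at the ceiling in all 6 libraries were in SPEN, a transcriptional repressor (8176 bases, chr1:15928091-15936266), PLEC, the cytolinker plectin (7249 bases), ANKRD11, a chromatin regulator (6578 bases), RAI1, a transcriptional regulator (5581 bases) and AHDC1, a DNA-binding protein (4929 bases). FAM83H, the insulin signalling adaptor IRS2, the intermediate filament gene NES and the transcription factors NFIX and ZBTB7A completed the first 10, the shortest of which was 3881 bases long. A long region need not be at the ceiling. MKI67, the gene of the proliferation marker Ki-67, held a region of 6845 bases with scores of 1960.4, 1370.6 and 3100 in the control and 263.3, 3100 and 3100 in the knockdown libraries. Knockdown replicate 1, which had the highest scores in general, had the lowest score there.

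Identical regions were found in 3759 protein-coding genes, 71.8% of the 5237 genes with a region in all 6 libraries. In 2501 genes there was 1, in 974 there were 2 or 3, in 284 at least 4, and in 15 at least 10. In 2920 of the genes (77.7%), each region present in all 6 libraries was identical. Among the genes with the most, WNK2, a kinase of the WNK family, held 17 of 17 such regions. CEP250, a centrosomal protein, held 16 of 18. MAD1L1, a spindle checkpoint protein, and PCNT, the centrosomal scaffold pericentrin, each held 13 of 13.

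These genes differed in score. In WNK2 no region was at the ceiling in all 6 libraries, and the median scores were 367.9, 681.2 and 1587.9 in the control and 1184.0, 530.1 and 681.4 in the knockdown libraries, so the groups overlapped. PCNT had medians of 260.9, 444.9 and 1110.3 in the control and 1646.2, 960.6 and 1395.5 in the knockdown libraries, also overlapping through control replicate 3. CEP250 had 741.9, 1387.3 and 3100 in the control and 3100, 2271.7 and 3100 in the knockdown libraries, and its groups overlapped through the same library. MAD1L1 had medians of 505.2, 1471.0 and 3092.8 in the control and 3100 in each knockdown library. Of its 13 regions, 12 could be fitted, and all 12 had a higher fitted log2 score in the knockdown libraries (median difference 0.71, range 0.23 to 1.29). In WNK2, 14 of 17 fitted regions were lower in the knockdown libraries (median -0.18), in CEP250 13 of 15 were higher (median 0.21) and in PCNT 10 of 13 were higher (median 0.56). None of these regions passed the test described next, and the regions of 1 gene share their transcripts.

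Whether NAT10 knockdown went with another score of the identical regions was the comparison the design allows. Ranked within each library among the 8758 regions with 1 peak in each library, the identical regions had a median percentile of 53.6, 53.0 and 53.2 in the control and 53.2, 54.0 and 53.9 in the knockdown libraries. The groups overlapped. The means were 53.3 ± 0.29 and 53.7 ± 0.442 (SD, n = 3 each), a difference of 0.403 percentile points, which did not pass a two-sided exact permutation test (p = 0.3, where 3 against 3 cannot go below 0.1). Since the percentile is taken among regions that are mostly members, it can show a shift only relative to the shifting regions.

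Region by region, limma was fitted to quantile-normalized log2 scores of 7851 regions, 5585 of them identical. The 749 identical regions at the ceiling in all libraries carry no difference and were left out. No identical region passed a Benjamini-Hochberg adjusted p of 0.05 in limma in either direction, as in the background of all regions fitted (0.0% called lower and 0.0% called higher), and the smallest adjusted p of an identical region was 0.535. At an unadjusted p of 0.05 there were 165 lower (2.95%) and 286 higher (5.12%) in the knockdown libraries, beside 3.41% and 4.74% of all regions fitted. With 1 library left out these counts ranged from 105 to 265 and from 136 to 430. Without knockdown replicate 1 the lower ones (265) outnumbered the higher ones (212), and without control replicate 3 there were 202 and 430. Without regions at the ceiling in any library the counts were 169 lower and 139 higher, and without normalization between libraries 36 and 496, so the balance of the directions rested on these choices. The median difference, knockdown minus control, was 0.04 on the log2 scale over the identical regions and 0.02 over all regions fitted, with a median standard error of 0.6 for a single identical region. Fitted differences several times their own standard error also went uncalled, as given for single regions below, so the absence of calls does not show that scores were alike.

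A count without a model gave a like picture. In 333 identical regions (5.26%) all 3 knockdown libraries had a lower percentile than all 3 control libraries, and in 403 (6.36%) a higher one. Over all 8758 regions with 1 peak in each library the shares were 5.7% lower and 5.9% higher, so the identical regions lay near the background in both directions. On the deposited scores, which were higher in general in knockdown replicate 1, 92 identical regions (1.45%) were lower and 747 (11.8%) higher without overlap, beside 1.59% and 11% of all regions with 1 peak in each library. Without normalization between libraries the median difference of all fitted regions was 0.40 on the log2 scale, so directions are given relative to the other regions.

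The 5 identical regions with the smallest p and a lower fitted score in the knockdown libraries are given by their values, since none was called. In SLC27A1, a fatty acid transport protein, the region at chr19:17470444-17470707 scored 715.5, 503.7 and 653.2 in the control and 86.8, 83.5 and 99.6 in the knockdown libraries. All knockdown scores were below all control scores, with a log2 difference of -3.16 ± 0.62 (SE) and a limma adjusted p of 0.535. In PTPRN2, a phosphatase-like receptor of secretory granules, a region of 169 bases scored 380.1, 1058.8 and 536.2 in the control and 101.1, 53.3 and 111.5 in the knockdown libraries. The groups did not overlap there either (log2 difference -3.24 ± 0.64). PSTPIP1, an adaptor of the actin cytoskeleton, had the highest control scores of the 5, with 2363.4, 3100 and 2637.8. Its scores in the knockdown libraries were 1065.6, 739.5 and 812.7. In PLCB3, a phospholipase C of G protein signalling, the scores were 727.4, 1311.3 and 2835.6 in the control and 843.1, 128.6 and 130.5 in the knockdown libraries. Knockdown replicate 1 lay inside the control range there, so the PLCB3 groups overlapped on the deposited score, whereas their within-library percentiles did not overlap.

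The fifth of these regions lay in EPB41L1, a protein of the membrane skeleton, which held 7 identical regions of 7 present in all libraries and is 1 of 15 genes that the study names and that were looked up here. Its region at chr20:36194212-36194360 scored 939.9, 423.0 and 897.8 in the control and 183.9, 110.4 and 98.5 in the knockdown libraries (log2 difference -2.97 ± 0.66). Another of its regions, at chr20:36092680-36092813, scored 606.6, 1832.5 and 1755.9 in the control and 3100, 1914.3 and 3100 in the knockdown libraries (0.85 ± 0.34). The peaks of 1 gene thus had fitted differences of opposite sign, and neither was called (limma with Benjamini-Hochberg adjustment, adjusted p = 0.54 and 0.608).

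In the other direction, the region of PCSK1N, which encodes an inhibitor of a prohormone convertase, scored 292.6, 363.3 and 681.4 in the control and 3100 in each knockdown library, at chrX:48831869-48832341. Since the knockdown scores sat at the ceiling, the fitted log2 difference of 2.61 ± 0.43 was limited by it. ARHGAP26, a GTPase-activating protein, had 75.4, 150.2 and 144.7 in the control and 2808.7, 1041.2 and 1142.2 in the knockdown libraries (3.23 ± 0.58). SDC1, the cell-surface proteoglycan syndecan-1, had 306.5, 416.3 and 420.2 in the control and 3100, 3100 and 1975.2 in the knockdown libraries. The groups of all 3 regions were apart, and no adjusted p was below 0.535.

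PTGES3, a cochaperone of HSP90, had a region of 114 bases with 430.6, 702.5 and 592.5 in the control and 3100, 3100 and 3068.1 in the knockdown libraries. TBXT, the transcription factor brachyury, had 67.6, 285.1 and 96.4 in the control and 2574.9, 1456.4 and 1057.7 in the knockdown libraries (3.28 ± 0.69). No knockdown score lay in the control range in either region. Whether a score follows the amount of the transcript, its share pulled down or both is not known, since its scale is not stated. With no counts of the input libraries used here, these cannot be told apart.

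**Figure D3:**
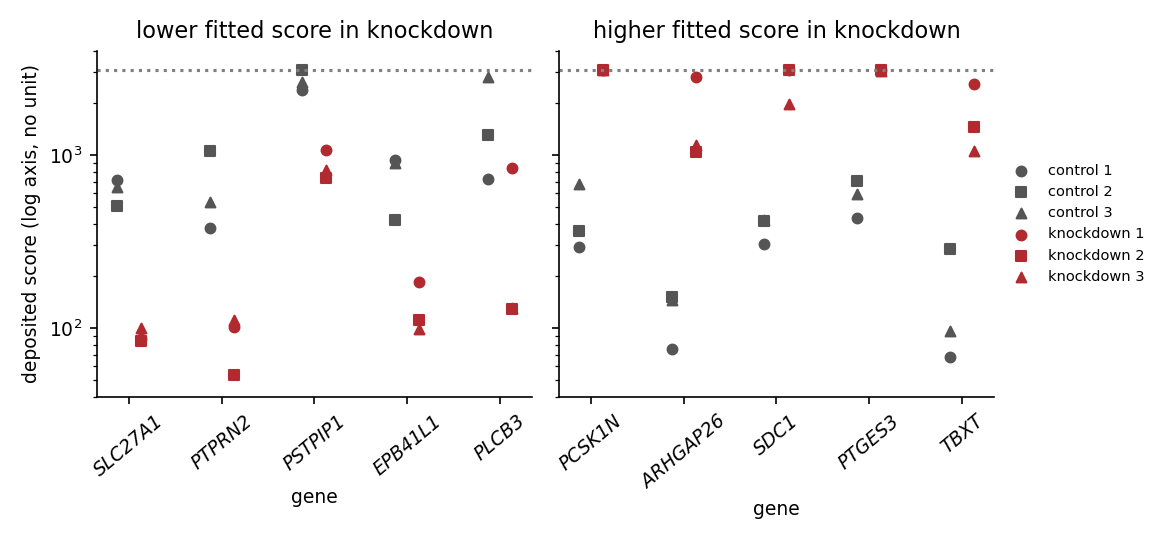
The y axis is the deposited score on a log axis and the x axis the gene of the region. Grey marks are control and red marks knockdown libraries, circles, squares and triangles being replicates 1, 2 and 3, and the dotted line is the ceiling of 3100. On this scale the groups are apart in 9 of the 10 regions and overlap in PLCB3.

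Among the other genes that the study names, AIFM2, a suppressor of ferroptosis, held 2 identical regions. Its region at chr10:70123907-70124102 scored 239.1, 195.0 and 204.8 in the control and 1075.0, 1057.3 and 221.7 in the knockdown libraries, where knockdown replicate 3 lay among the control scores. ERRFI1, a feedback inhibitor of EGFR, had a peak in 5 libraries and EGFR in 4, and neither held an identical region.

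Gene groups that encode housekeeping machinery differed in how high their identical regions scored. Over all protein-coding genes, the median of the mean percentile was 51.3. Histone genes held 26 identical regions in 23 of 36 genes with a region in all libraries, and 18 of these 26 were at the ceiling in every library (median percentile 89.1). They included the linker histones H1-10 (1507 bases), H1-4 (754) and H1-5 (681). Translation initiation and elongation factors held 44 regions in 18 of 21 genes, with a median percentile of 80.9 and 17 regions at the ceiling in all libraries, among them EIF3A, EIF3B and EEF1A2. Splicing proteins of the SR and hnRNP families held 25 regions in 14 of 16 genes (median percentile 76.2), with regions of HNRNPM and SRSF9 at the ceiling throughout. Longer regions scored higher in general. The median length was 402 bases for the histone regions, 182.5 for the translation factors and 170 for the splicing proteins, beside 215 over all protein-coding genes. The part of length in the histone value was not tested.

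Cytosolic ribosomal proteins are made from some of the most abundant mRNAs of a cell. Of their 86 genes, 2 had a region in all libraries, beside 5237 of 20050 protein-coding genes. Identical regions were found in 1 gene, and its 2 regions had a median percentile of 55.0, beside 51.3 over all genes. Zinc finger genes named ZNF held 94 regions in 73 of 121 genes (median percentile 43.5), and heat shock chaperones 29 regions in 17 of 28 genes (38.9). Identical boundaries were frequent among kinesins, in 16 of 17 genes with a region in all libraries (94.1%), and among DEAD and DEAH box helicases, in 23 of 25 (92.0%), beside 71.8% of all genes. Splicing proteins (87.5%), translation factors (85.7%) and proteasome subunits (83.3%) also lay above that share. Histones (63.9%), heat shock chaperones (60.7%) and ZNF genes (60.3%) lay below it. A gene with more regions has more chances to hold an identical one, which was not taken into account. Of 7 genes of the ac4C machinery looked up, FBL and NOP58, both of box C/D ribonucleoproteins, held 1 region each. FBL was at the ceiling in all libraries.

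None of these groups had a member that passed the adjusted threshold in limma. The median log2 difference, knockdown minus control, was 0.24 for 27 fitted regions of translation factors, -0.19 for 8 of histones and 0.35 for 18 of splicing proteins, beside 0.05 over all genes. The percentiles of the groups did not overlap in 6 of 44 regions of translation factors, all higher in the knockdown libraries. The 44 regions lay in 18 genes, and regions of 1 gene share their transcripts. Without overlap were also 1 of 26 regions of histones, which was higher, and 1 of 25 of splicing proteins, which was lower. In the background the shares were 5.9% higher and 5.7% lower. In 20 regions of core PI3K, AKT and mTOR genes, 2 were lower and 0 higher without overlap, counts too small to set apart from that background, and the median difference of 18 fitted regions was -0.08. Among these, RPS6KB1 and EIF4EBP1, both downstream of mTOR, were at the ceiling in all libraries. ERBB2, a receptor of the EGFR family, had 275.3, 559.0 and 496.2 in the control and 1513.4, 718.1 and 451.6 in the knockdown libraries, and its groups overlapped.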

How the data were processed

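Peak lists of 6 acRIP-seq libraries were used, and 6 input samples were not analysed here. The authors deposited 1 list of mRNA peaks per library, called separately, with names in the style of MACS and a score of unknown scale from 50 upward. Per the labels the build was GRCh38. The aligner, caller version and settings are not given in the sources used here. Scores above 3100 (564 peaks) were set to 3100, a choice made after the data were seen. Genes were named by the region's midpoint in the RefSeq GRCh38.p14 gene table, with strand from the RefSeq window table where it gave 1 (15843 of 20050 protein-coding genes), and regions of overlapping genes carry all names. Positions are 1-based. Scores were compared with limma (trend and robust eBayes, quantile-normalized log2 scores, Benjamini-Hochberg over all regions fitted, threshold 0.05) and an exact permutation test over libraries, and the code was tested on simulated data. The members and gene lists were chosen with earlier results of these data known, and letters at edges, distances to starts and the letter pattern were examined after the lists were seen. Named regions were the 10 longest at the ceiling, the 5 shortest and 5 longest, the 5 with the smallest p per direction, the 5 genes with most regions, up to 4 of each gene list by score, genes the study names, and up to 5 with an edge at a gene start, 1 per gene. A few of the regions so chosen are not reported here. Sequences were shown for regions in a single gene, without chromosome 8. They and the PDHX, NREP, UCHL3, ATRAID and ZNF580 exceptions were chosen after their values were seen. Alternatives were another merging, boundary tolerance, score scale and filter, a replicate block, and each library left out. Python 3.11.15, numpy 2.4.6, pandas 2.3.3, scipy 1.17.1, matplotlib 3.10.9, R 4.3.3 and limma 3.58.1 were used.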

Additional observations from a re-analysis of the deposited data

How the results depend on the processing

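Merging regardless of strand left 6334 identical regions, and a tolerance of 1 or 10 bases gave 6370 and 6600. Restricting each list to its top 50% of peaks by score gave 3731 regions, as fewer peaks enter. Leaving out 1 library gave between 6535 and 7052, as fewer lists have to match. Edges at a gene end were found in 10.2% of the identical regions within 10 bases against 3.73% exactly, by the looser criterion, and in 3.57% to 4.04% with 1 library left out. The score shift stayed positive in each alternative, from 0.27 to 0.658 percentile points with 1 library left out. No p of the exact permutation test was below 0.2. With 1 library left out that test cannot go below 0.2, so those settings could not have passed. Without knockdown replicate 1 it reached this lowest value, so these p-values do not show that a shift was absent. No setting of limma called an identical region, and its smallest adjusted p was 0.0589, on within-library percentiles. The count of regions whose groups' percentiles do not overlap, 736, uses no threshold on p. Under a replicate block the shift was 0.403 (exact sign-flip test, p = 0.5, smallest possible 0.25) and limma called 0 regions (151 lower and 241 higher at an unadjusted p of 0.05). Replicate numbers showed no pairing, as libraries of equal number had deviations that correlated at -0.0139, -0.0617 and 0.0562. Keeping scores above 3100, an alternative added after the data were seen, gave 0.403. The ceiling and the unknown depth limit what the scores can show.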
